A study of Mus musculus with 6 samples.

Results

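The cytosolic ribosomal protein genes encode the proteins that, with the ribosomal RNAs, make up the large and the small subunit of the cytosolic ribosome. They were taken as every probe set whose symbol starts with Rpl or Rps and a digit, plus Rplp0, Rplp1 and Rpsa, without the kinase genes named Rps6k and without symbols marked as pseudogenes. The choice gave 68 genes of 22206 transcript probe sets, each with 1 probe set. Of these genes, 31 encode proteins of the large subunit, 2 encode proteins of its stalk (Rplp0 and Rplp1) and 22 encode proteins of the small subunit, which makes 55 canonical genes. A further 11 are paralogues or retrogenes of canonical genes, among them Rpl3l, and 2 (Rps19bp1 and Rps23rg1) are named after a ribosomal protein without being one. RefSeq lists 89 coding genes under the same rule, of which 67 were measured and 22, among them Rplp2, Rps27a, Rps3 and Rpl10, were not analysed here. Rps4l, which RefSeq lists as a transcribed pseudogene, was the remaining gene.

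The series holds 6 samples, each hybridised to its own array in a single colour, with RNA labelled as colon crypt of C57BL/6J mice. In the MBELN group (3 arrays), mice received by mouth, once a day for 7 days, nanoparticles resembling exosomes that were prepared from mulberry bark. The PBS group (3 arrays) is labelled as control mice. Both groups share the strain and the tissue label, and the labels used here give no age. Whether the arrays of a group stem from different mice is not stated, so the p-values below reflect array-to-array spread that may not be spread between mice. This spread also holds the tissue marker profiles, given below, which differ between arrays of the same group.

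Ribosomal proteins are assembled onto ribosomal RNA in the nucleolus in fixed proportions, and their mRNAs are among the most abundant of a cell. Most of these mRNAs begin with a run of C and U, the terminal oligopyrimidine (TOP) motif, through which their translation follows the mTOR pathway. In the gut, the dividing cells of the crypt are known for a high demand for new ribosomes. A few ribosomal proteins have tissue-restricted paralogues, of which Rpl3l, the heart and skeletal muscle counterpart of Rpl3, is the best described in mouse.

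The start-site sequences of the canonical genes are shown because the TOP run is a feature that the gene names did not use. Promoter windows of RefSeq (build GRCm38.p6, 250 bases before to 50 bases from the annotated start) were matched for 55 of the 68 genes, 43 of them canonical. The 6 stretches below cover 80 bases before and 20 bases from the start, on the coding strand, with capitals on the longest C/T run that touches the stretch from 5 bases before to 10 bases from the start. The first 4 genes have the longest runs at the start, Rplp0 is the gene that MBELN 2 set furthest below the other arrays, and Rpl3l is the paralogue with the largest difference between groups.
Rpl7a, chr2:26910727-26910826, plus strand: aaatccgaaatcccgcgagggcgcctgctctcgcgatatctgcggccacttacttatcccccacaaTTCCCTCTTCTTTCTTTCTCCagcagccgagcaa
Rpl35, chr2:39005112-39005211, minus strand: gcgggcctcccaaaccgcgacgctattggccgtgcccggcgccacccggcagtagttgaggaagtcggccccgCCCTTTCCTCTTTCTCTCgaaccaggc
Rpl15, chr14:18270967-18271066, minus strand: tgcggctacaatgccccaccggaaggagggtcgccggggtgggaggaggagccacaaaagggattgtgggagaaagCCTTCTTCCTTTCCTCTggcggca
Rpl14, chr9:120571437-120571536, plus strand: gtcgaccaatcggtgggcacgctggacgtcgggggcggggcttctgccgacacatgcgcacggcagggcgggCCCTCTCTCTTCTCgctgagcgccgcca
Rplp0, chr5:115559387-115559486, plus strand: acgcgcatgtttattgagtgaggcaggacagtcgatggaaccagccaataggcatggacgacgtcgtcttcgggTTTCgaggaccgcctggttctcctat
Rpl3l, chr17:24727746-24727845, plus strand: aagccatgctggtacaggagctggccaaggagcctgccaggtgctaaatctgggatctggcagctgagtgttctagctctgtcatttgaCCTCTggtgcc

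The runs were 21 bases in Rpl7a, 18 in Rpl35, 17 in Rpl15 and 14 in Rpl14, against 4 in Rplp0 and 5 in Rpl3l. These lengths rest on the annotated start, and runs that lie wholly outside the searched stretch, such as ttctcct in Rplp0, were not counted. A C/T run of 8 or more bases touching that stretch was found in 17 of 43 canonical genes (39.5%), against 13.0% of the 27025 genes of the promoter table. The letters CTTTC, searched on the coding strand from 20 bases before to 50 bases from the start, were found in 22 of 43 (51.2%), against 10.4% of all genes. This motif overlaps the C/T run where both are present. The letters CCGGAA, the core bound by Ets factors, were searched on both strands of the whole window and found in 23 of 43 (53.5%), against 16.7% of all genes. TATAAA, the TATA box, searched on the coding strand of the 50 bases before the start, was found in 0 of 43 canonical genes and in 3.15% of all genes.

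The arrays did not all carry the markers of the labelled tissue. The median log2 value of 15 gut epithelium markers was 5.68, 3.35 and 4.89 on MBELN 1, 2 and 3, against 17.73, 17.57 and 17.83 on PBS 1, 2 and 3. Markers of heart muscle (15 genes) had medians of 18.63, 3.68 and 18.92 in MBELN, against 3.66, 3.75 and 3.91 in PBS. Neuron markers (13 genes) had medians of 3.63, 15.56 and 3.55 in MBELN, against 4.301, 4.11 and 4.23 in PBS. MBELN 1 and MBELN 3 were thus high for heart markers, MBELN 2 for neuron markers, and the PBS arrays for gut epithelium markers. Among the PBS arrays, 10 Paneth cell markers, which belong to the small intestine, had medians of 19.06, 3.54 and 19.61, and 8 colon epithelium markers had medians of 6.71, 16.84 and 7.69. PBS 2 was therefore the array with colon markers high and Paneth cell markers low. Over all probe sets, Pearson's r was 0.977 between MBELN 1 and MBELN 3 and 0.983 between PBS 1 and PBS 3, while MBELN 2 correlated at 0.597 to 0.663 with the other 5 arrays. Arrays are named below by their labels, a difference between the groups is also a difference between these marker profiles, and the part of those profiles in the results on ribosomal protein genes was not tested.

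Nearly all ribosomal protein genes gave signal on every array. Receptor genes of smell, which most tissues do not express, set a dim level on each array, at the 95th percentile of 1412 probe sets (3.99 to 4.44 on the log2 scale). Of the 68 genes, 63 were above this level on all 6 arrays and 3 were below it on all 6 (Rps23rg1, and Rpl39l and Rpl10l, which are best known from mouse testis). Rps4l was above the level on 5 arrays and Rpl3l on 2. At the other end, 7 genes had means within 1 log2 unit of the highest value of the table, 19.93, where differences between arrays may be compressed. These were Rps23, Rpl21, Rplp1, Rps15, Rps6, Rpl41 and Rpl15, and their lowest value on a PBS array was 19.03. Rplp1, Rps15 and Rps23 shared the values 19.8994 on MBELN 1 and 19.9315 on MBELN 3. Rpl15, Rpl41 and Rps23 shared 19.9161 on PBS 2 with Rpl35, which is not among the 7. Differences between genes or arrays that involve such tied values are not resolved.

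**Figure D1:**
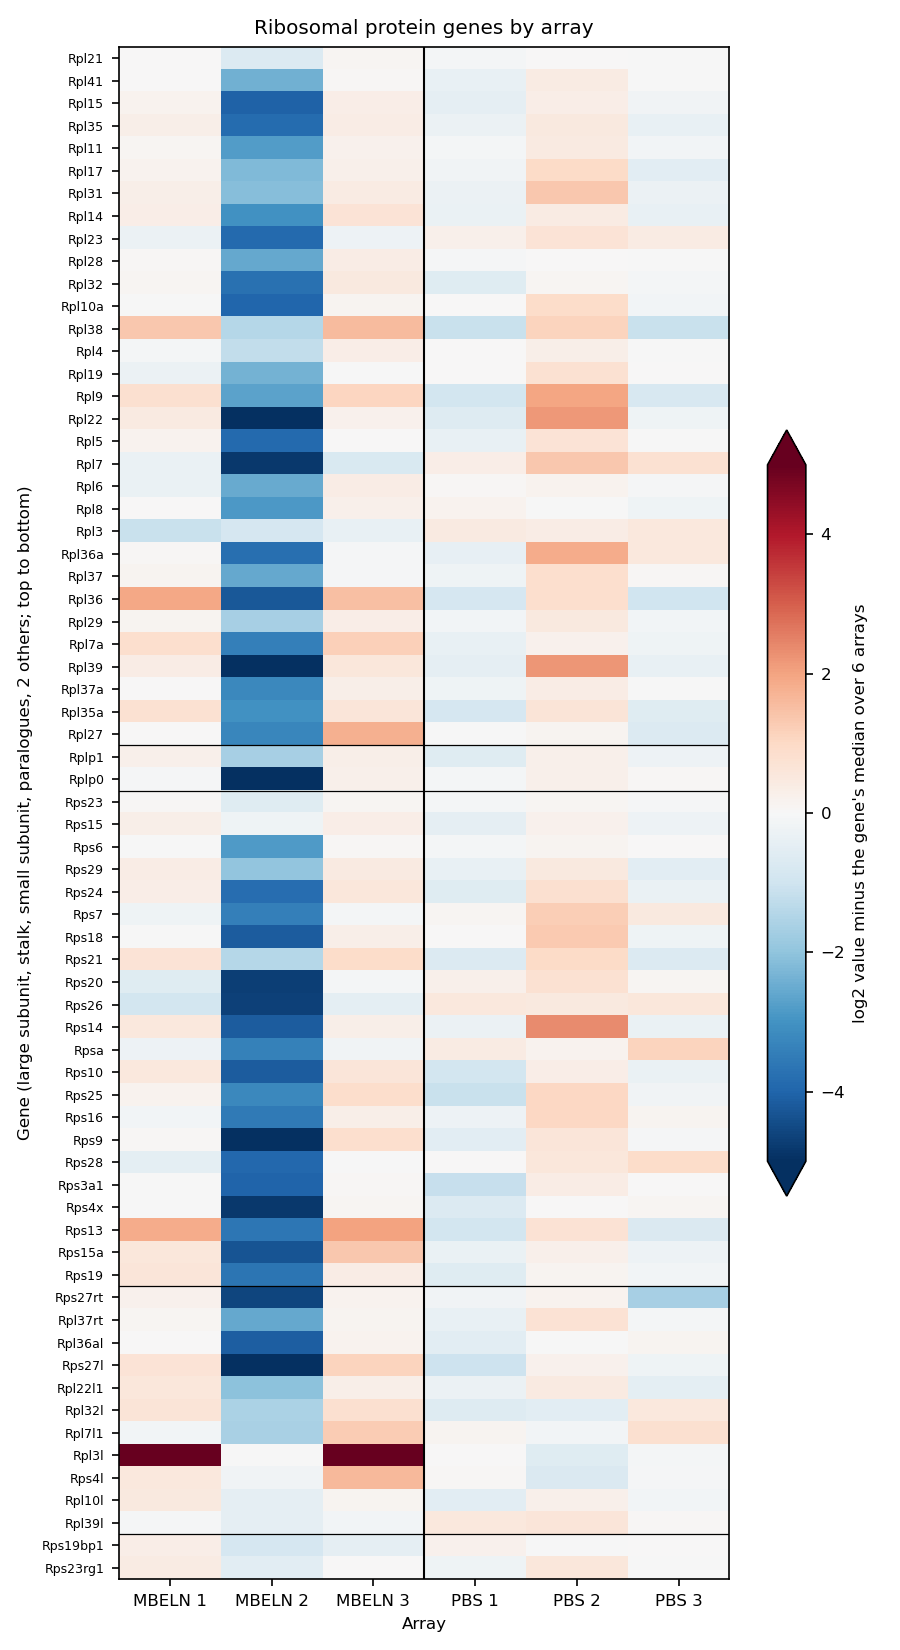
Each row is 1 of the 68 genes and each column 1 array, MBELN left of PBS; colour gives the log2 value minus the gene's median over the 6 arrays, cut at 5 in either direction. The MBELN 2 column is low in most rows of the large subunit, the stalk and the small subunit, while Rpl3l is high on MBELN 1 and MBELN 3.

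MBELN and PBS samples were compared to ask whether the treatment goes with other levels of ribosomal protein mRNAs. None of the 68 genes passed an adjusted p of 0.05 (limma, Benjamini-Hochberg over all 22206 probe sets), against 5.18% of all probe sets. At an unadjusted p under 0.05 there was 1 gene, Rpl3, against 17.8% of all probe sets. At an adjusted p under 0.1 there was also 1 (Rpl3), against 7.98%. The estimates nevertheless lay mostly on one side, with 59 genes below 0 and 9 above, a median difference of -0.84 log2 and a median of 0.09 over all probe sets, of which 44.4% were below 0. In RNA taken from many cells together, fewer cells of a type and less RNA per cell cannot be told apart.

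By role, the median difference was -0.85 for the large subunit, -1.17 for the stalk, -0.999 for the small subunit and -0.43 for the paralogues. The 6 values of 10 genes did not overlap between groups, with every MBELN value below every PBS value: Rpl7, Rpl19, Rpl23, Rpl3, Rps7, Rps20, Rps26, Rps28, Rpsa and Rpl39l, of which Rpl39l was below the dim level throughout. That is 14.7% of the 68 genes, close to the 13.4% found among all probe sets. The opposite order, every MBELN value above every PBS value, was found for 0 of 68 genes and for 11.9% of all probe sets.

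The negative median came with 1 array. The median over the 68 genes was 15.68, 11.84 and 15.76 on MBELN 1, 2 and 3, against 15.43, 16.45 and 15.79 on PBS 1, 2 and 3. MBELN 2 was the lowest of the 6 arrays for 63 genes, and it lay at least 1 log2 unit below every other array for 55 of 68 (80.9%), against 7.96% of all probe sets. Because bright probe sets have more room to be low on 1 array, the same was counted among the 575 probe sets of 12 or more on all of the other 5 arrays, where it held for 50.3%. Among these bright probe sets it held for 48 of 54 ribosomal protein genes (88.9%, median gap -2.99) and for 241 of 521 others (46.3%, median gap -0.76). The gap is the MBELN 2 value minus the lowest of the other 5. This is 1 array set against the rest, and it is given as a description.

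**Figure D2:**
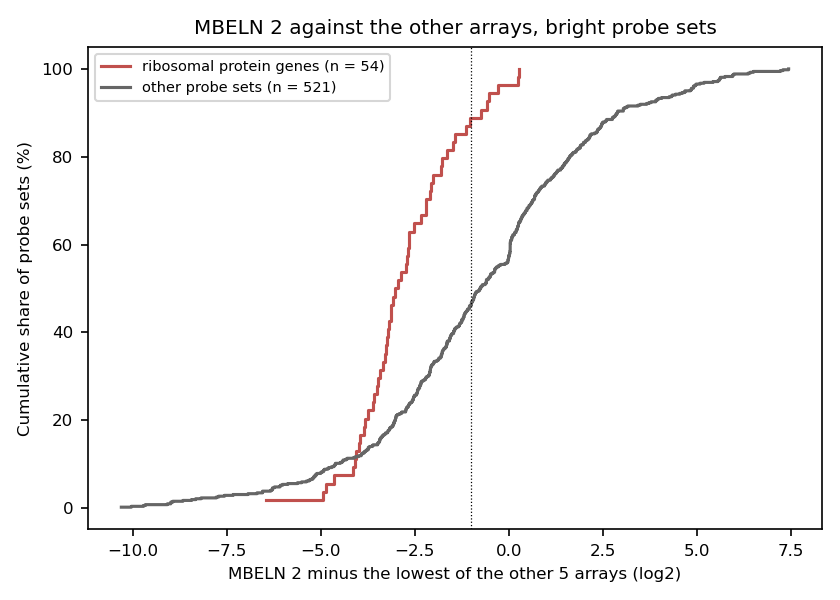
The x axis is the MBELN 2 value minus the lowest of the other 5 arrays (log2) for probe sets of 12 or more on those 5, and the y axis is the cumulative share of probe sets in percent. The curve of the 54 ribosomal protein genes lies left of that of the 521 other probe sets, with medians of -2.99 and -0.76, and the dotted line marks a gap of 1 log2 unit.

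The stalk, to which elongation factors bind, gave a wide and a narrow gap. Rplp0, the stalk base protein and a common normalization gene in quantitative PCR, had values of 17.54, 11.03 and 17.84 in MBELN, against 17.49, 17.82 and 17.62 in PBS. The gap of MBELN 2 was -6.46, the widest among the 68 genes, while the other 5 arrays lay within a narrow band. The group means were 15.47 ± 3.84 in MBELN and 17.64 ± 0.17 in PBS (SD, n = 3 each), a difference of -2.17 ± 1.88 (SE, limma adjusted p = 0.608). Rplp1, whose protein binds to Rplp0 as a dimer with Rplp2, had 19.90, 17.99 and 19.93 in MBELN, against 19.03, 19.90 and 19.37 in PBS. Its MBELN 2 value was also the lowest, with a gap of -1.04, and 2 of its 3 MBELN values were at the top of the scale.

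In the large subunit, MBELN 2 was at least 1 log2 unit below the other arrays for 28 of 31 genes, with a median gap of -2.64. The same held for 7.96% of all probe sets and 50.3% of those of 12 or more on the other 5 arrays. Rpl39, a small protein that lines the peptide exit tunnel, had 14.69, 8.97 and 14.87 in MBELN, against 13.84, 16.50 and 13.92 in PBS. MBELN 2 was far below the rest and PBS 2 the highest, so that the groups overlapped. Rpl22, which also binds viral and cellular RNAs, had 17.96, 12.19 and 17.73 in MBELN, against 16.84, 19.66 and 17.28 in PBS, with the same low and high array. Rpl7, which had the most negative difference of all 68 genes, had 16.67, 12.16 and 16.24 in MBELN, against 17.32, 18.36 and 17.75 in PBS. For this gene MBELN 1 and MBELN 3 were below the PBS arrays as well, and the difference was -2.79 ± 1.26 (SE, limma adjusted p = 0.328). Rpl9 had 18.03, 14.55 and 18.30 in MBELN, against 16.34, 19.21 and 16.46 in PBS, a range of values in which the other 2 MBELN arrays lay between the PBS arrays.

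The exceptions in the large subunit were Rpl21, Rpl38 and Rpl3. Rpl21 had 19.82, 19.14 and 19.91 in MBELN, against 19.71, 19.81 and 19.81 in PBS, at the top of the scale on all arrays. Rpl38, known in mouse for the translation of Hox mRNAs and named here after its values were seen, had 18.80, 16.03 and 19.03 in MBELN, against 16.32, 18.58 and 16.32 in PBS. For Rpl38 the gap of MBELN 2 was only -0.29, since PBS 1 and PBS 3 were low as well. Rpl3 was the one large-subunit gene for which MBELN 2 was not the lowest array.

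In the small subunit, 19 of 22 genes had MBELN 2 at least 1 log2 unit below the other arrays, with a median gap of -3.19. The shares beside this count are again 7.96% of all probe sets and 50.3% of those of 12 or more on the other 5 arrays. Rps9, whose protein contacts the mRNA path, had 15.00, 9.47 and 15.81 in MBELN, against 14.41, 15.57 and 14.92 in PBS. Rps4x, an X-linked gene, had 14.20, 9.38 and 14.33 in MBELN, against 13.53, 14.24 and 14.33 in PBS. In both genes the 5 arrays other than MBELN 2 overlapped between the groups. Rps14, the gene linked to the anaemia of human 5q- syndrome, had 15.79, 11.09 and 15.55 in MBELN, against 14.96, 17.61 and 14.94 in PBS. MBELN 2 was again low and PBS 2 again high.

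Rps6, the substrate of S6 kinase, had 19.43, 16.59 and 19.50 in MBELN, against 19.33, 19.57 and 19.46 in PBS. Its 5 other values lay within a fraction of a log2 unit of each other, near the top of the scale. Rpsa, which is also known as a laminin receptor, had 14.56, 11.43 and 14.63 in MBELN, against 15.25, 15.02 and 15.96 in PBS. All 3 MBELN values were below all PBS values, and the difference was -1.87 ± 0.95 (SE, limma adjusted p = 0.385). The genes without the gap were Rps15 and Rps23, both near the top of the scale, and Rps21. Rps15, whose protein lies near the decoding site, had 19.90, 19.42 and 19.93 in MBELN, against 19.18, 19.81 and 19.37 in PBS.

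Across the 55 canonical genes, the mean of the other 5 arrays and the gap of MBELN 2 had a Spearman's rho of 0.27, given as a description over genes that share the same arrays. The median gap was -3.06 in the 22 genes whose start window held CTTTC, with a range of -4.87 to -0.29, and -3.02 in the 21 without it, with a range of -6.46 to 0.24. The medians were close and the ranges overlapped, and a relation of the gap to these letters was not tested. Of the 2 genes only named after a ribosomal protein, 0 had the gap: their gaps were -0.39 (Rps19bp1) and -0.28 (Rps23rg1). Rps23rg1 was below the dim level on all 6 arrays and so had little room to be lower on MBELN 2. Rps19bp1 was above the dim level on all 6 arrays, at 5.38 on MBELN 2, where that level was 4.10. As this left 1 gene with room to be lower, no contrast to the canonical genes was drawn.

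Among the PBS arrays, PBS 2 was the highest for 56 of 68 genes (82.4%), against 42.0% of all probe sets. The median excess of PBS 2 over the mean of PBS 1 and PBS 3 was 0.66 log2, against 0.05 over all probe sets. Dim probe sets are part of that background: 51.9% of all probe sets were above the dim level on PBS 2. No share among bright probe sets was taken here, so the excess cannot be called particular to ribosomal protein genes. Rpl9, Rpl39, Rpl22 and Rps14 showed the excess in the values above. PBS 2 was the array with colon markers, and it also belonged to the 3 arrays with a higher level of the hybridisation controls, the bacterial and phage transcripts added before hybridisation (means of 10.08, 8.63 and 10.09 on MBELN 1, 2 and 3, against 8.98, 9.79 and 8.43 on PBS 1, 2 and 3).

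The comparison was therefore repeated within each level of these controls, where 2 arrays of one group met 1 of the other, the lone array was assumed to vary like the others, and the spread came from 1 residual degree of freedom moderated over all probe sets. Within the lower level, which set MBELN 2 alone against PBS 1 and PBS 3 and so restates its low values, 54 of 68 genes were lower in MBELN and 0 higher, with a median difference of -2.82, against 15.8% of all probe sets lower and a median of -0.03. Within the higher level, which set MBELN 1 and MBELN 3 against PBS 2, 5 genes were lower (Rpl7, Rpl22, Rpl36a, Rpl39 and Rps14) and 1 higher (Rpl3l), against 18.8% of all probe sets in either direction. The median difference there was -0.16. With the level as a block over all 6 arrays, 1 gene (Rps14) passed, against 6.19% of all probe sets. The part of the control level in these differences was not tested.

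Without MBELN 2, the direction of the median turned. The 68 genes then had a median difference of 0.17, against 0.06 over all probe sets, with 19 genes below 0 and 49 above. Of these genes 3 (4.41%) passed the adjusted p of 0.05, against 16.8% of all probe sets: 1 was lower (7.32% of all probe sets) and 2 were higher (9.51%). The lone lower gene was Rps26, a small-subunit protein near the mRNA exit, with 15.00, 11.24 and 15.42 in MBELN, against 16.44, 16.39 and 16.47 in PBS. All 3 MBELN values were below the closely grouped PBS values, and without MBELN 2 the difference was -1.22 ± 0.28 (SE, limma adjusted p = 0.0395). The higher genes were Rpl3l and Rps13, a small-subunit protein with 15.22, 9.73 and 15.37 in MBELN, against 12.44, 14.06 and 12.65 in PBS. For Rps13, MBELN 1 and MBELN 3 were above all PBS arrays and MBELN 2 below them, and without MBELN 2 the difference was 2.25 ± 0.55 (SE, limma adjusted p = 0.0486). Rps26 and Rps13 are named after their values were seen.

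**Figure D3:**
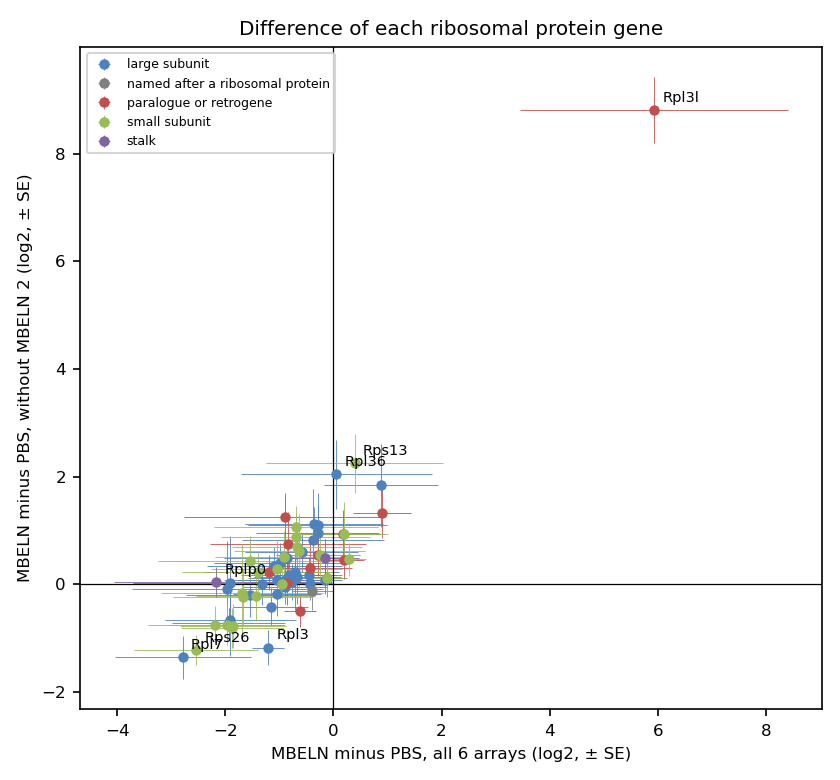
Each point is 1 of the 68 genes, with the MBELN minus PBS difference over all 6 arrays on the x axis and without MBELN 2 on the y axis (log2, bars are SE), coloured by role. Most points lie left of 0 on the x axis (59 genes) but above 0 on the y axis (49 genes), with Rpl3l at the upper right.

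Without PBS 2 as well, 13 genes passed (19.1%), against 30.5% of all probe sets. The 2 lower genes were Rps26 and Rpl3 (15.4% of all probe sets were lower), and the 11 higher genes were Rpl3l, Rpl7a, Rpl9, Rpl35a, Rpl36, Rpl38, Rps10, Rps13, Rps15a, Rps21 and Rps27l (15.1%). The median difference was 0.47, against 0.10 over all probe sets. Rpl36 had 17.38, 11.19 and 16.94 in MBELN, against 14.59, 16.30 and 14.46 in PBS. Its difference was 2.64 ± 0.33 (SE, limma adjusted p = 0.00103) in this comparison of MBELN 1 and MBELN 3 with PBS 1 and PBS 3. Over all 6 arrays it was 0.05 ± 1.76. The 2 arrays were left out with earlier results known. For Rpl36 they held the lowest MBELN and the highest PBS value, so leaving them out narrowed the spread and this p-value is only a description. With weights estimated for each array, 4 genes passed (Rpl3 lower, Rpl3l, Rpl38 and Rps13 higher), against 25.9% of all probe sets. Without MBELN 2, without both arrays and with array weights, the share of ribosomal protein genes past the threshold was below that of all probe sets.

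Rpl3 and its paralogue Rpl3l moved in opposite directions on MBELN 1 and MBELN 3. Rpl3, which reaches the peptidyl transferase centre of the ribosome, had 14.43, 14.69 and 15.16 in MBELN, against 15.98, 15.90 and 16.05 in PBS. Every MBELN value was below every PBS value, and MBELN 2 lay between the other MBELN arrays. The means were 14.76 ± 0.37 in MBELN and 15.98 ± 0.07 in PBS (SD, n = 3 each), a difference of -1.21 ± 0.30 (SE), with a limma adjusted p of 0.0944 over all 6 arrays, 0.0691 without MBELN 2 and 0.0463 without PBS 2 and MBELN 2.

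Rpl3l had 10.63, 2.94 and 12.52 in MBELN, against 3.01, 2.38 and 2.89 in PBS. MBELN 1 and MBELN 3 were high, and MBELN 2 was as low as the PBS arrays, all 4 below the dim level. Over all 6 arrays the difference was 5.94 ± 2.48 (SE, limma adjusted p = 0.296), and without MBELN 2 it was 8.81 ± 0.61 (SE, limma adjusted p = 0.000821). Because PBS gave only a bound, the MBELN mean (8.70) was set against the mean dim level of the PBS arrays (4.17), which gave at least 23.0-fold higher in MBELN. MBELN 1 alone was at least 87.9-fold and MBELN 3 alone at least 325-fold above that level. The 15 heart markers were all above the dim level on MBELN 1 and MBELN 3, while 4 of 15 were above it on MBELN 2 and 4, 4 and 7 of 15 on PBS 1, 2 and 3. Of 12 skeletal muscle markers, 4, 1 and 4 were above it in MBELN, against 3, 1 and 3 in PBS. Ckm, the muscle creatine kinase, had 15.81 and 16.42 on MBELN 1 and MBELN 3, the skeletal actin Acta1 14.24 and 15.56, and the myosin light chain Myl1 12.58 and 14.94, and these 3 of the 12 were higher in MBELN without MBELN 2. The fast myosin genes Myh1, Myh2 and Myh4 had at most 3.98 on both arrays. The 2 arrays with Rpl3l signal were thus those with heart markers, and the part of the markers in the difference was not tested.

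For 8 paralogues measured together with their canonical gene, the difference between both within each array was compared between groups, since a level of one probe set cannot be set against that of another. The exact permutation test (two-sided, 3 against 3 arrays) can give no p below 0.10, and no pair passed after adjustment over the 8 pairs (adjusted p of 0.267 to 0.80). The values of 3 pairs did not overlap between groups, at the smallest p of 0.10: Rpl3l with Rpl3, Rpl7l1 with Rpl7 and Rpl37rt with Rpl37. No share over pairs of other genes is given beside this count. Among single probe sets, 13.4% were lower and 11.9% higher in MBELN without overlap. Rpl3 and Rpl7 were themselves lower in MBELN without overlap, so their pairs partly restate these genes. Rpl3l minus Rpl3 was at least 5.74 log2 higher in MBELN, with Rpl3l set to the dim level on the PBS arrays, and at least 8.58 without MBELN 2. Rpl7l1 minus Rpl7 was 2.36 higher in MBELN and 1.66 without MBELN 2, and Rpl37rt minus Rpl37 was 0.19 and 0.21 higher. Rpl39l was below the dim level on all arrays, so its pair carries no more than the values of Rpl39. The pairs Rpl32l with Rpl32 and Rpl37rt with Rpl37 were added after the values were seen, and Rpl37rt and Rpl37 are near-identical copies that may share signal, as Rps27rt may with other copies of its family.

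**Figure D4:**
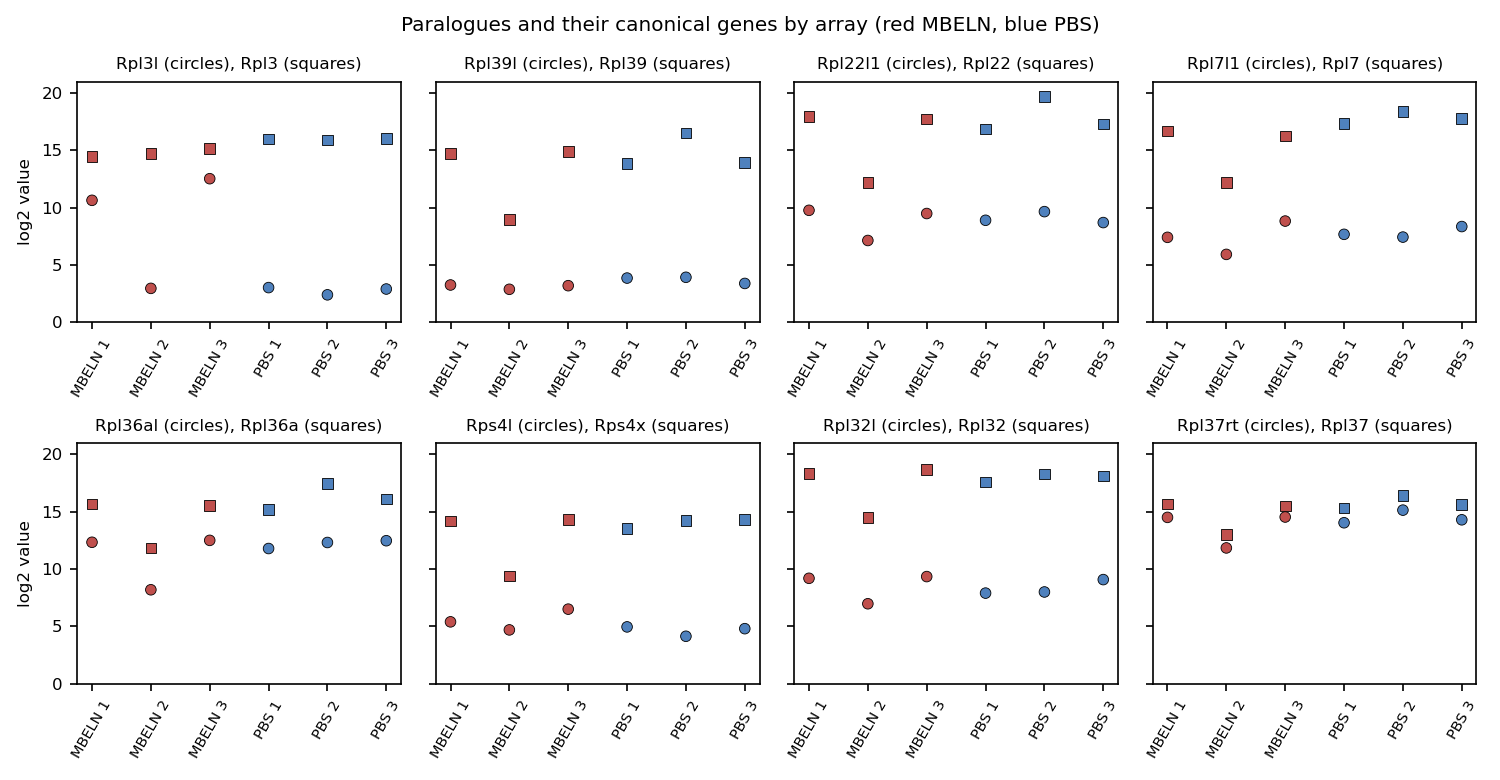
Each panel shows a paralogue (circles) and its canonical gene (squares) with the log2 value on each array, MBELN in red left of PBS in blue; only changes between arrays can be read, not the height of circles against squares. Rpl3l stands high on MBELN 1 and MBELN 3, whereas Rpl39, Rpl22, Rpl7, Rpl36a, Rps4x, Rpl32 and Rpl37 are low on MBELN 2.

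The low values of MBELN 2 were also found in part of the paralogues. Rps27l, a homologue of Rps27 induced by p53, had 11.50, 5.28 and 11.95 in MBELN, against 9.80, 11.06 and 10.60 in PBS. The gap of MBELN 2 was -4.52, and MBELN 1 and MBELN 3 were above all PBS arrays. Rpl36al, a retroposed copy of Rpl36a, had 12.33, 8.19 and 12.50 in MBELN, against 11.79, 12.31 and 12.47 in PBS. Its gap was -3.60, similar to the -3.35 of Rpl36a, and both together left their difference at 0.72 between groups (exact permutation p = 0.30).

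Rpl22l1, which can replace Rpl22 in the ribosome, had 9.76, 7.12 and 9.48 in MBELN, against 8.88, 9.64 and 8.69 in PBS. The gap of MBELN 2 was -1.56, against -4.66 for Rpl22, so that Rpl22l1 minus Rpl22 was 1.68 higher in MBELN (exact permutation p = 0.30). Rpl7l1 had 7.40, 5.91 and 8.82 in MBELN, against 7.66, 7.42 and 8.34 in PBS, with overlapping groups. Rps4l had 5.39, 4.68 and 6.50 in MBELN, against 4.95, 4.13 and 4.79 in PBS, near the dim level. Rpl32l had 9.19, 6.97 and 9.34 in MBELN, against 7.90, 7.996 and 9.08 in PBS, and Rpl39l stayed between 2.86 and 3.91 on all arrays. In all, 6 of 11 paralogues had MBELN 2 at least 1 log2 unit below the other arrays. This compares with 7.96% of all probe sets and 50.3% of those of 12 or more on the other 5 arrays. Neither share is matched to the levels of the paralogues.

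Genes that work with the ribosomal proteins were read from the same comparison. Of 52 measured genes of ribosome biogenesis, 2 passed, both lower in MBELN, against 5.18% of all probe sets in either direction. Eif6, which keeps the subunits apart during maturation of the large one, averaged 8.35 ± 0.42 in MBELN and 13.58 ± 0.06 in PBS (SD, n = 3 each), a difference of -5.23 ± 0.31 (SE, limma adjusted p = 0.00148). Nop58, a core protein of the box C/D particles that methylate ribosomal RNA, averaged 6.84 ± 0.15 in MBELN and 8.48 ± 0.13 in PBS, a difference of -1.64 ± 0.25 (SE, limma adjusted p = 0.0245). Both genes were low on all 3 MBELN arrays, MBELN 2 included. The median difference over the list was 0.14.

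Of 30 translation initiation factors, 2 passed, both higher in MBELN, against the same 5.18%, with a list median of -0.35. Eif1b, a paralogue of the start-codon selection factor Eif1, averaged 10.87 ± 0.24 in MBELN and 7.84 ± 0.05 in PBS (SD, n = 3 each), and the limma adjusted p was 0.00379. Eif4e, the cap-binding protein, averaged 12.44 ± 0.11 in MBELN and 9.67 ± 0.42 in PBS, with a limma adjusted p of 0.00929. Of 18 genes that act on TOP mRNAs or S6 kinase, 1 passed as lower and 1 as higher in MBELN, against the same 5.18%, with a list median of -0.18. Deptor, an mTOR inhibitor, was lower in MBELN, with means of 6.63 ± 0.88 in MBELN and 10.46 ± 0.38 in PBS (SD, n = 3 each, limma adjusted p = 0.0165). Tsc2, which restrains mTOR through Rheb, was higher, with means of 9.81 ± 0.42 in MBELN and 7.60 ± 0.36 in PBS (SD, n = 3 each, limma adjusted p = 0.0271). In these 4 genes all 3 MBELN arrays lay on the same side of the PBS arrays. Of 18 cytosolic aminoacyl-tRNA synthetases, which charge tRNAs, 0 passed in limma and 3 had an unadjusted p under 0.05, against 17.8% of all probe sets. Without MBELN 2, the genes past the threshold were 2 lower and 3 higher for ribosome biogenesis, 2 lower and 5 higher for initiation factors, 2 lower and 3 higher for TOP mRNA and S6 kinase control, and 0 for the synthetases, against 7.32% of all probe sets lower and 9.51% higher. Eif6 and Eif1b passed the threshold in each comparison of 5 arrays. The others lost it with at least 1 array left out, where the highest adjusted p in limma was 0.129 for Nop58 (without PBS 1), 0.0569 for Eif4e (without PBS 1), 0.0844 for Deptor (without PBS 1) and 0.134 for Tsc2 (without PBS 3). With all 6 arrays, a trended and robust prior also ended the calls of Nop58 (limma adjusted p = 0.146), Tsc2 (0.0925) and Eif4e (0.0593), and the filter on dim probe sets that of Nop58 (0.0547). The replicate block ended those of Nop58 (limma adjusted p = 0.134), Tsc2 (0.122), Eif4e (0.0628) and Eif1b (0.0521). The part of the marker profiles in these differences was not tested.

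Fau, which encodes a ubiquitin-like protein fused to a small-subunit protein and so falls outside the naming rule, had 16.18, 13.48 and 16.50 in MBELN, against 17.32, 17.49 and 17.37 in PBS. Its gap of MBELN 2 was -2.70, and all MBELN values were below all PBS values (difference -2.01 ± 0.84, SE, limma adjusted p = 0.297).

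The mitochondrial ribosomal proteins, encoded in the nucleus for the separate ribosome of mitochondria, had another pattern. The median of their 76 genes was 9.87, 7.01 and 10.22 on MBELN 1, 2 and 3, against 7.64, 7.14 and 7.76 on PBS 1, 2 and 3. MBELN 1 and MBELN 3 were above all PBS arrays, and MBELN 2 was near them. Over all 6 arrays 0 of 76 passed in limma, with 15 at an unadjusted p under 0.05, against 17.8% of all probe sets, and a median difference of 1.38. Without MBELN 2, 55 of 76 were higher (9.51% of all probe sets) and 0 lower (7.32%), with a median of 2.39, against 2 higher and 1 lower of the 68 cytosolic genes and a median of 0.17. MBELN 2 was at least 1 log2 unit below all other arrays for 21 of the 76, against 7.96% of all probe sets. The difference between the cytosolic and the mitochondrial genes was not tested.

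**Figure D5:**
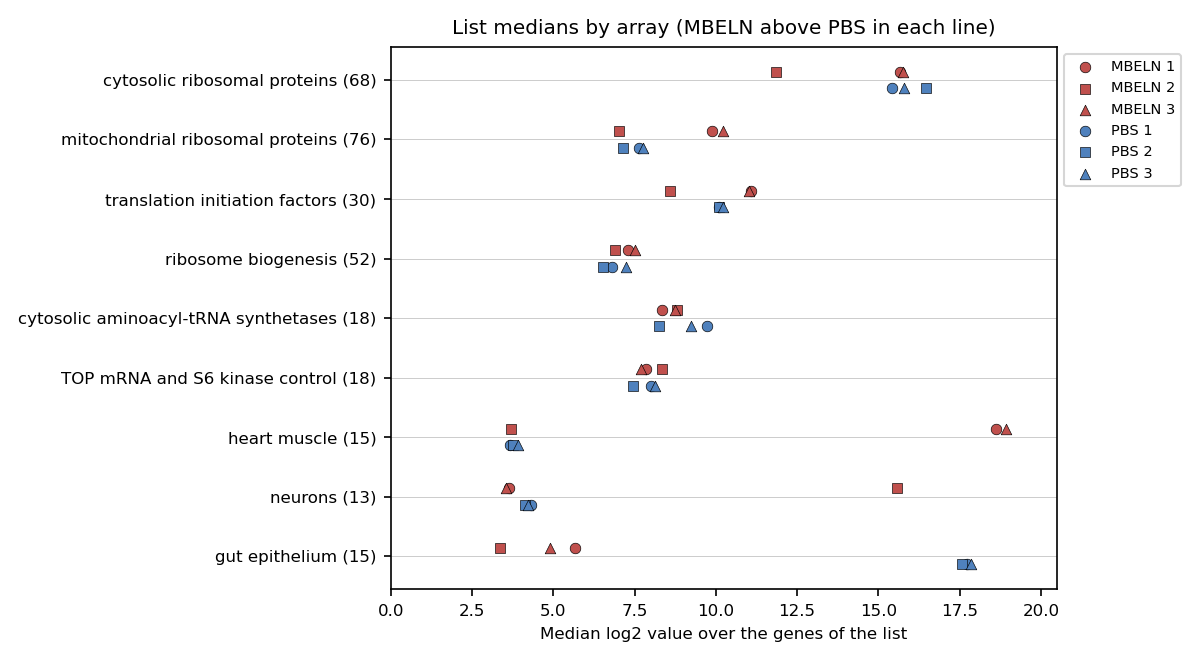
Each symbol is the median log2 value of a gene list on 1 array, MBELN (red) above PBS (blue) in each line, with the number of genes measured in brackets. The cytosolic ribosomal proteins are low on MBELN 2 (11.84) and between 15.43 and 16.45 on the other 5 arrays, the mitochondrial ones are high on MBELN 1 and MBELN 3, and the marker lists of heart, neurons and gut epithelium separate the arrays.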

How the data were processed

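Total RNA from 6 samples was measured on single-colour arrays. Values were used as the authors deposited them: 1 value for each probe set and array, taken as log2 from their range, since the scale is not stated. The Transcriptome Analysis Console 4.0 was used, per the submitters' processing notes. How probes were summarized and normalized, and on which build, is not stated in the sources used here. The labels' protocols name both biotinylated cRNA from 90 ng RNA and an Ion AmpliSeq kit, which was not resolved. Arrays give no read depth, so precision rests on how many there are.

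Of 28846 probe sets, 6640 controls were left out. Symbols came from the platform annotation: 19572 of 22206 transcript probe sets had 1 symbol, 0 several and 2634 none. Differences (MBELN minus PBS) and p-values came from limma 3.58.1 (lmFit, eBayes, two-sided, 4 residual and 1.66 prior degrees of freedom, Benjamini-Hochberg over all 22206) with statmod 1.5.0 in R 4.3.3, tested on simulated data. Paralogue pairs were tested by exact permutation in Python 3.11.15 with scipy 1.17.1. Tables and plots used pandas 2.3.3 and matplotlib 3.10.9.

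The genes, lists and tests were chosen with earlier results of these data known. Genes named by rule were paralogue pairs, the 8 with the widest range, the 5 with the highest and the 5 with the lowest means, the stalk genes, Rpsa and Rps6, and up to 4 genes of each list with the smallest p; genes given only because they passed an alternative or stood out in a count were named after their values were seen. Other marker lists read were glia, skeletal muscle, small intestinal enterocytes, immune cells, smooth muscle and fibroblasts, red blood cells and testis germ cells; their medians on MBELN 1, 2 and 3, then PBS 1, 2 and 3, were 3.31, 9.17 and 3.93, then 3.01, 3.65 and 3.42 for glia, 3.67, 3.17 and 3.66, then 3.08, 3.40 and 3.31 for skeletal muscle, 8.78, 3.47 and 8.21, then 17.12, 5.28 and 17.11 for enterocytes, 5.61, 5.40 and 5.93, then 7.15, 6.52 and 5.07 for immune cells, 11.95, 4.92 and 11.24, then 13.47, 14.58 and 13.32 for smooth muscle and fibroblasts, 4.31, 3.90 and 5.67, then 4.05, 3.91 and 3.78 for red blood cells, and 3.26, 3.67 and 3.34, then 3.22, 3.06 and 2.94 for germ cells. Over all probe sets, same-numbered samples did not deviate together (r of -0.03, -0.07 and -0.06), and the main comparison used no pairing. Because the marker profiles differ within each group, these r values cannot exclude a pairing by replicate number. Alternatives were a filter that removed dim probe sets, centring on array medians, quantile normalization, array weights, a trended and robust prior, blocks for the replicate number and for the hybridisation control level, the comparison within each level, leaving out arrays, and an adjusted p of 0.1; the unadjusted p was added after seeing the data.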

Additional observations from a re-analysis of the deposited data

How the results depend on the processing

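The number of ribosomal protein genes past the threshold was 0 with quantile normalization, median centring, the filter on dim probe sets, the trended and robust prior, the replicate block, and without genes near the top of the scale. With the replicate block the median difference stayed at -0.84 and all probe sets past the threshold numbered 456, against 1150 without it. Whether the replicate numbers pair the samples is not known. The number was 4 (1 lower, 3 higher) with array weights, 1 (lower) with a block for the hybridisation control level, 13 (2 lower, 11 higher) without PBS 2 and MBELN 2, 6 (5 lower, 1 higher) within the higher control level and 54 (54 lower, median difference -2.82) within the lower level. It was 1 (lower) at an adjusted p of 0.1 and 1 (lower) at an unadjusted p under 0.05. Leaving out 1 array at a time gave 0 to 3 genes in all, 0 to 1 lower and 0 to 2 higher, all from leaving out MBELN 2, and a median of -1.43 to 0.17. The median was also above 0 with array weights (0.28) and without PBS 2 and MBELN 2 (0.47). Each gene has 1 probe set, so the choice among several gave no other value. Counts over the other lists ranged over the alternatives from 1 to 12 for ribosome biogenesis, 0 to 17 for initiation factors, 0 to 10 for control of TOP mRNAs, 0 to 7 for the synthetases, 0 to 1 for Fau and 0 to 61 for the mitochondrial ribosomal proteins. The share of all probe sets past the threshold also moved with the setting. It was 5.18% in the main comparison, 25.9% with array weights and 30.5% without PBS 2 and MBELN 2. The ranges alone therefore cannot be read as a trait of these lists.

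For the ribosomal protein genes named by rule, and those past the threshold without MBELN 2 or without PBS 2 and MBELN 2, the difference changed sign as follows, and the cause was not tested. Without PBS 2 and MBELN 2 it was 0.10 for Rpl21, 0.79 for Rpl22, 0.83 for Rpl22l1, 0.63 for Rpl32, 1.40 for Rpl35a, 0.29 for Rpl36al, 0.13 for Rpl37, 0.36 for Rpl37rt, 0.90 for Rpl39, 0.25 for Rpl41, 1.30 for Rpl7a, 0.11 for Rpl7l1, 1.76 for Rpl9, 0.13 for Rplp0, 0.72 for Rplp1, 1.20 for Rps10, 0.72 for Rps14, 1.25 for Rps15a, 0.17 for Rps23, 0.34 for Rps23rg1, 1.53 for Rps27l, 1.12 for Rps27rt, 0.34 for Rps4x, 0.0705 for Rps6 and 0.74 for Rps9. With array weights it was 0.0709 for Rpl21, 0.35 for Rpl22, 0.63 for Rpl22l1, 0.46 for Rpl32, 1.14 for Rpl35a, 0.16 for Rpl36al, 0.17 for Rpl37rt, 0.40 for Rpl39, 0.12 for Rpl41, 1.05 for Rpl7a, 0.0800 for Rpl7l1, 1.33 for Rpl9, 0.60 for Rplp1, 0.96 for Rps10, 0.27 for Rps14, 0.94 for Rps15a, 0.12 for Rps23, 0.28 for Rps23rg1, 1.24 for Rps27l, 0.63 for Rps27rt, 0.18 for Rps4x and 0.41 for Rps9. Within the higher control level it was 0.0486 for Rpl21, 0.20 for Rpl32, 0.0312 for Rpl35a, 0.10 for Rpl36al, 0.77 for Rpl7a, 0.69 for Rpl7l1, 0.0144 for Rplp1, 0.23 for Rps10, 0.69 for Rps15a, -0.16 for Rps21, 0.67 for Rps27l, 0.0320 for Rps27rt and 0.0188 for Rps4x. Within the lower level it was -0.12 for Rpl10l, -1.52 for Rpl32l, -3.33 for Rpl36, -0.29 for Rpl38, -0.00554 for Rpl3l, -2.81 for Rps13, -0.75 for Rps21 and -0.19 for Rps4l. With the level as a block it was -0.0360 for Rpl10l, -0.13 for Rpl32l, -1.24 for Rpl36, -0.79 for Rps13 and -0.46 for Rps21, with quantile normalization it was -0.0259 for Rpl36 and 0.0388 for Rplp1, and with median centring it was -0.000872 for Rpl36. Leaving out 1 array at a time it ranged from -0.0198 to 0.44 for Rpl10l, -0.30 to 0.0833 for Rpl21, -0.77 to 0.55 for Rpl22l1, -1.61 to 0.49 for Rpl32, -0.24 to 0.94 for Rpl32l, -0.95 to 0.94 for Rpl35a, -1.05 to 2.04 for Rpl36, -1.93 to 0.23 for Rpl36al, -1.32 to 0.0312 for Rpl37rt, -2.92 to 0.0300 for Rpl39, -1.19 to 0.0425 for Rpl41, -1.18 to 1.12 for Rpl7a, -1.15 to 0.30 for Rpl7l1, -1.05 to 0.83 for Rpl9, -3.36 to 0.0433 for Rplp0, -0.49 to 0.48 for Rplp1, -1.50 to 0.87 for Rps10, -0.57 to 2.25 for Rps13, -1.76 to 1.07 for Rps15a, -0.24 to 0.93 for Rps21, -0.25 to 0.11 for Rps23, -0.34 to 0.11 for Rps23rg1, -2.09 to 1.24 for Rps27l, -1.66 to 0.76 for Rps27rt, -2.24 to 0.23 for Rps4x, -1.44 to 0.0109 for Rps6 and -2.73 to 0.44 for Rps9. With 3 arrays a group and marker profiles that differ within each group, small differences are not detectable.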

Other observations

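The low values of MBELN 2 were looked up in the initiation and elongation factors, taken as all symbols that start with Eif or Eef and a digit among the probe sets of 12 or more on the other 5 arrays. They were looked up after the values of ribosomal protein genes were seen and are a description with no test. MBELN 2 was at least 1 log2 unit below every other array for 8 of these 16 genes, against 46.3% of the 521 bright probe sets that are not ribosomal protein genes. Among the 11 initiation factors it held for 5, with gaps (MBELN 2 minus the lowest of the other 5 arrays) that ran from -3.04 for Eif2s2, a subunit of the factor that brings the initiator tRNA, to 0.30 for Eif3c, a subunit of the largest initiation factor. Eif3f, Eif3h, Eif4b and Eif3m had gaps of -2.36, -2.08, -2.02 and -1.05. Eif3k, Eif4a1, Eif4g2, Eif5a and Eif2s3x had gaps of -0.81, -0.62, -0.55, 0.0432 and 0.26. Among the 5 elongation factors it held for 3, the exchange factor subunits Eef1b2 (-3.48), Eef1d (-3.17) and Eef1g (-1.65). Eef2, which moves the ribosome along the mRNA, had a gap of -0.97, and Eef1a1, which brings tRNAs to the ribosome, had 0.0013. Rpl31-ps12, left out by the naming rule as a pseudogene, had a gap of -1.06, against -1.81 for Rpl31.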
